A study of Mus musculus with 6 samples.

Results

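The immediate early genes described here are Fos, Fosb, Fosl2, Jun, Junb, Egr1, Egr2, Nr4a1, Ier2 and Dusp1, 10 of the 20416 genes measured in MIN6-4N cells. MIN6-4N is a mouse pancreatic beta cell line derived from an insulinoma. The 10 genes were chosen by name, with earlier results of these data known. Every probe set to which the array annotation gave exactly 1 symbol, that of a member, was used. This gave 45 probe sets, from 3 to 8 a gene, of 241419 in the table, and no probe set was shared with another symbol. The vector group holds 3 cultures of 1 clone with integrated pcDNA3.1, and the Meg3 group 3 cultures of 1 clone with pcDNA3.1-mMeg3, which carries mouse Meg3, a maternally expressed non-coding RNA. Both clones went through nucleofection and 5 weeks of G418 at 750 µg/ml, and both were then kept in low-glucose DMEM with 15% serum and G418 at 500 µg/ml, with no acute stimulus named in the labels. With 1 clone a group, what the plasmid does and how the clones differ otherwise cannot be told apart, and a p-value is read against sister cultures, not against other clones. The labels give the Meg3 clone more than 1 name and speak of sorted cells, a step that no protocol describes.

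Immediate early genes are switched on within minutes of a stimulus and need no new protein for it, because the factors that drive them, SRF with its ternary complex partners and CREB, are already present and are activated by MAP kinase, calcium and cyclic AMP signals. Their products are mostly transcription factors: FOS and JUN proteins pair through leucine zippers to form AP-1, EGR proteins are zinc finger factors, and NR4A proteins are orphan nuclear receptors. In beta cells these genes are known to respond to glucose, membrane depolarisation and hormones that raise cyclic AMP. Their transcripts are short-lived, and Dusp1 encodes a phosphatase that switches MAP kinases off again.

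The proximal promoters are shown because these genes are defined by their regulation. Those of Dusp1, Nr4a1, Egr2 and Fosl2 come first, genes that were lowest of their clones in both vector replicate 2 and Meg3 replicate 1. Fos and Jun follow, which were lowest in Meg3 replicate 1 but not in vector replicate 2. RefSeq (GRCm38.p6) gave an entry for 8 of the 10 genes, and not for Egr1 or Ier2. Each sequence is the 250 bases before the annotated start, with matches to the motifs searched on both strands in capitals.
Dusp1, chr17:26508473-26508722, minus strand: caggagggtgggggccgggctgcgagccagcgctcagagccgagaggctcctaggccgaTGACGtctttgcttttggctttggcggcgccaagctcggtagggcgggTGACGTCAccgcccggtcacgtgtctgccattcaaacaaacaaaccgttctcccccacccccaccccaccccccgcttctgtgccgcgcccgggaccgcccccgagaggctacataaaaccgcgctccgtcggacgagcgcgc
Nr4a1, chr15:101266596-101266845, plus strand: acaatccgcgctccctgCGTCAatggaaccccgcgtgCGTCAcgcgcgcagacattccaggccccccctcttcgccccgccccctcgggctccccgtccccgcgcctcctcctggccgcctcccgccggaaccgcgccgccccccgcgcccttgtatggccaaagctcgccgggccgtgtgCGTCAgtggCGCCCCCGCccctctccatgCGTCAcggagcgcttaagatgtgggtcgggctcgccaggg
Egr2, chr10:67537619-67537868, plus strand: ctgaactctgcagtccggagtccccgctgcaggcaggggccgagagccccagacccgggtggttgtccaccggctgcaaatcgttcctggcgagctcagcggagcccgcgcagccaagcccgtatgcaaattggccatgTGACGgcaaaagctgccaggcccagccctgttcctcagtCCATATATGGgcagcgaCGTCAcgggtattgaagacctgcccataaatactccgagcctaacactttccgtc
Fosl2, chr5:32136222-32136471, plus strand: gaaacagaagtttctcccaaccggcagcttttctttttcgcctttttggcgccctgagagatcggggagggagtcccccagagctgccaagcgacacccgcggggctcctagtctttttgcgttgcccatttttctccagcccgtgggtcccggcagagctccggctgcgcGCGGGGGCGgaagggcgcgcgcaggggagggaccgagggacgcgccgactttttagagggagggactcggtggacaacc
Fos, chr12:85473640-85473889, plus strand: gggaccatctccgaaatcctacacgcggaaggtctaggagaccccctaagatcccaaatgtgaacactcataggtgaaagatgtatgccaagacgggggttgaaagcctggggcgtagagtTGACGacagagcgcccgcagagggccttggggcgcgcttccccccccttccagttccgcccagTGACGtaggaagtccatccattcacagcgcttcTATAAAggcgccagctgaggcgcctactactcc
Jun, chr4:95052223-95052472, minus strand: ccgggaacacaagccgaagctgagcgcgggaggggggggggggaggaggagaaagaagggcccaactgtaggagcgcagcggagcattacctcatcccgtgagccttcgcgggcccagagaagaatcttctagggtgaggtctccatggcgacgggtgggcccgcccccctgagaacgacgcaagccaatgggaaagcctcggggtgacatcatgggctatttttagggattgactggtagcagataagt

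The motifs searched were the cyclic AMP response element TGACGTCA, its core TGACG (part of the full element), the AP-1 element TGANTCA, the EGR element GCGNGGGCG, the TATA box TATAAA and the CArG box, to which SRF binds. Dusp1 was the only member with the full cyclic AMP element, at -143 to -136 from the start, where the table has it in 1.77% of its 27025 genes. The core was found in 6 of 8 members (Fos, Fosb, Junb, Egr2, Nr4a1 and Dusp1), against 19.8% of all genes. Nr4a1 held 4 copies of it, all on the reverse strand, and Fos 2. Dusp1 and the Egr2 window shown also held more than 1. A CArG box was found in Egr2 alone, at -72 to -63 of the start shown, 1 of 5 that the table gives for this gene, against 1.62% of all genes. The EGR element was found in Fosb, Fosl2 and Nr4a1 (5.33% of all genes), the TATA box in Fos (14.3%) and the AP-1 element in no member (7.82%). The Jun window held none of these motifs, and the Fosl2 window only the EGR element. Whether a motif goes with low values in vector replicate 2 and Meg3 replicate 1 was not tested. The windows of members held 54 to 74.4% GC, where the median of all windows was 52.4%, and the shares were not matched for GC. The motif matches are descriptions of sequence in these windows only.

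Meg3 itself was 7.24, 7.91 and 7.53 (log2) in the Meg3 cultures and 5.63, 6.00 and 5.88 in the vector cultures, a difference of 1.72 (SE 0.19; limma, Benjamini-Hochberg adjusted p = 0.00756). All 8 beta cell markers had a mean log2 value above the median of all gene values (6.65), led by Iapp, which encodes amylin, and the glucose phosphatase gene G6pc2. The glucagon gene Gcg, an alpha cell marker, was also high (12.82 ± 0.12 in the vector and 12.66 ± 0.11 in the Meg3 clone, SD, n = 3), as was the keratin gene Krt7 (10.13 ± 0.33 and 10.03 ± 0.23), the only 1 of 3 duct markers above the median of all genes. Of 4 leukocyte markers 2 were above it, the macrophage gene Cd68 (8.62 ± 0.58 and 8.33 ± 0.25) the highest. Acinar and endothelial markers had no gene above that median. None of the 31 markers measured was called by limma (adjusted p under 0.05), and 2 had an unadjusted p under 0.05. In the summary of all probe sets, vector replicate 2 and Meg3 replicate 1 stood apart: the SD around the median of the other arrays was 0.85 and 0.63 (log2), against 0.42 to 0.48 for the remaining 4. The members' differences and spreads are given with and without them below.

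All 10 immediate early genes had a negative difference between the Meg3 and the vector clone, with and without vector replicate 2 and Meg3 replicate 1. With all 6 arrays it ran from -0.57 to -0.02 on the log2 scale, with a median of -0.19. Across all genes 48.4% were negative and the median was 0.01. None of the 10 was called (limma over 20416 genes, adjusted p under 0.05), and the background rate was 0.666% of genes. At an unadjusted p under 0.05 there were 2, Jun and Egr1, where 6.96% of all genes passed. In 4 of the 10 (Fosb, Jun, Egr1 and Ier2) every Meg3 culture lay below every vector culture, which held for 6.39% of all genes. None of the 10 had the opposite arrangement, which 6.41% of all genes had. With 3 arrays against 3, an exact two-sided permutation test cannot give a p under 0.1, and it gave that value for these 4. In whole cultures, fewer cells with a transcript and less transcript per cell cannot be told apart.

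**Figure D1:**
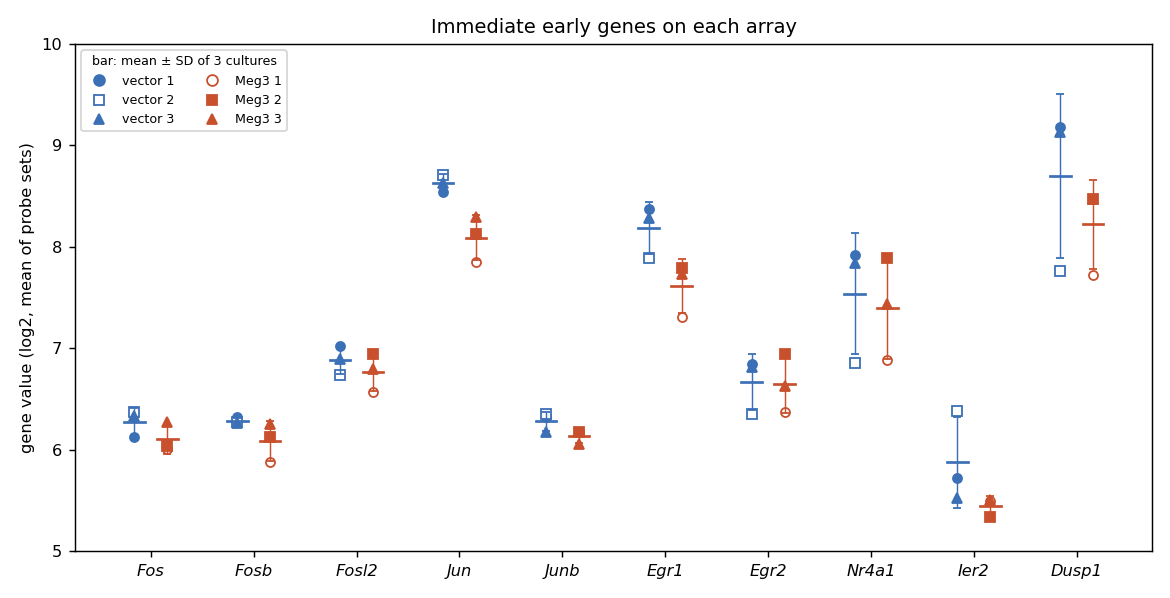
Log2 gene value (mean of the probe sets of a gene) of 10 immediate early genes on each of 6 arrays, with bars for the mean ± SD of 3 cultures of the vector clone (blue) and of the Meg3 clone (orange); open symbols are vector replicate 2 and Meg3 replicate 1. Jun, Egr1, Fosb and Ier2 do not overlap between clones, and the open symbols lie far below the others of their clone for Dusp1 and Nr4a1.

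Of the JUN subunits of AP-1 among the members, Jun separated the clones and Junb did not. Jund, another JUN gene, is no member and is given with the AP-1 family below. Jun, the main partner of FOS proteins, read 8.54, 8.71 and 8.63 in the vector cultures and 7.85, 8.13 and 8.29 in the Meg3 cultures. The lowest vector value lay above the highest Meg3 value, and the difference was -0.54 (SE 0.14), or 1.45-fold, without a call (limma adjusted p = 0.237). All 6 Jun probe sets were negative, from -1.03 to -0.21, and the groups did not overlap in 2 of them. Junb, a JUN protein that often moderates Jun, read 6.32, 6.35 and 6.17 against 6.17, 6.17 and 6.05, so the lowest vector culture lay among the Meg3 cultures (difference -0.15, SE 0.11; limma adjusted p = 1.00). It varied less between cultures than any other member (pooled SD within clones 0.08), but its 3 probe sets were dim to moderate, with means from 4.84 to 7.40.

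The FOS subunits, which bind DNA only as partners of JUN proteins, had small differences. Fos, the best known of them, read 6.12, 6.37 and 6.33 in the vector and 6.00, 6.03 and 6.27 in the Meg3 clone, an overlapping range (difference -0.17, SE 0.13). Its brightest probe set (mean 7.98) read 8.18, 8.04 and 8.12 against 7.74, 7.84 and 7.94, without overlap, whereas another (mean 4.96) differed by 0.03. Fosb read 6.32, 6.27 and 6.26 against 5.87, 6.13 and 6.25, and the gap between the lowest vector and the highest Meg3 culture was under the SD of either clone (difference -0.20, SE 0.13). Fosl2, which encodes FRA-2, read 7.03, 6.74 and 6.90 against 6.56, 6.94 and 6.79, with the groups overlapping (difference -0.12, SE 0.14). None of the 3 was called (limma adjusted p from 0.994 to 1.00). Fos, Fosb, Junb and Ier2 had means below 6.65 (the median gene value) in either clone, and the table carries no detection calls, so how far they lie above background is unknown.

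Of the EGR factors, Egr1 had the most negative difference of the 10 genes and Egr2 the one nearest to 0. Egr1, which binds GC-rich elements and is a standard readout of MAP kinase signalling, read 8.37, 7.89 and 8.29 in the vector and 7.31, 7.79 and 7.73 in the Meg3 clone. The groups did not overlap. The log2 difference was -0.57 (SE 0.18), or 1.49-fold, and was not called (limma adjusted p = 0.394). Its brightest probe set read 10.43, 10.24 and 10.49 against 9.28, 9.74 and 9.68, a difference of -0.82 (SE 0.21) when probe sets were tested singly. Egr2, the related factor known from hindbrain and myelinating cells, read 6.84, 6.35 and 6.81 against 6.37, 6.94 and 6.63, with full overlap (difference -0.02, SE 0.19). Its 5 probe sets disagreed, from -0.86 to 0.38. The brightest was higher in every Meg3 culture (8.80, 8.47 and 8.78 against 9.04, 9.04 and 8.98), and a second probe set also lay without overlap in that direction. The sign for Egr2 therefore depends on the probe sets used.

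The other 3 members are a nuclear receptor, a nuclear protein and a phosphatase, and they varied most between cultures. Nr4a1, which encodes NUR77, read 7.92, 6.85 and 7.84 in the vector and 6.88, 7.88 and 7.44 in the Meg3 clone. The cultures spanned 1.07 (log2) in the vector and 1.01 in the Meg3 clone, and the difference between clones was -0.14 (SE 0.33). Ier2, a small nuclear protein, read 5.72, 6.38 and 5.52 against 5.50, 5.33 and 5.50. The groups touched without overlapping (difference -0.43, SE 0.21; limma adjusted p = 0.816), and the high vector culture came from 1 probe set that read 7.62 there and 5.65 and 5.73 in the other vector cultures. Without vector replicate 2 and Meg3 replicate 1 the Ier2 difference was -0.20 (SE 0.11). Dusp1 read 9.19, 7.76 and 9.14 against 7.72, 8.47 and 8.48, so the replicate that stood apart was lowest in each clone and the ranges overlapped (difference -0.47, SE 0.39; limma adjusted p = 1.00).

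The 4 Dusp1 probe sets behaved in different ways. The brightest read 10.21, 10.59 and 10.30 in the vector and 9.48, 9.51 and 9.54 in the Meg3 cultures. It had the same order of clones in all cultures, a difference of -0.85 (SE 0.19 tested singly) and a Meg3 SD of 0.03. The next read 9.67, 6.22 and 9.65 against 7.10, 8.73 and 8.79, so that vector replicate 2 lay over 3 log2 units under its sister cultures. In the remaining 2, vector replicate 2 and Meg3 replicate 1 were again the lowest of their clones. The same split appeared in Nr4a1, where 5 of 8 probe sets were lowest in both of these arrays. One of these read 8.73, 5.83 and 8.27 against 6.03, 8.44 and 7.70, while another Nr4a1 probe set read 7.81, 7.93 and 8.08 against 8.33, 7.96 and 8.09. What sets the probe sets of a gene apart was not tested.

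**Figure D2:**
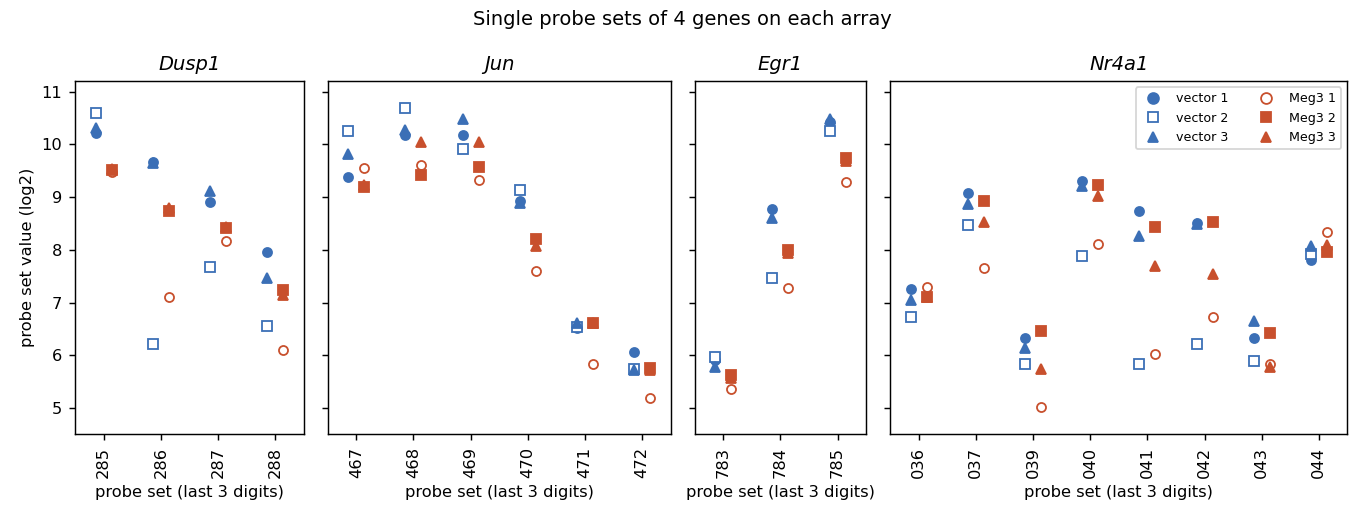
Log2 value of every probe set of Dusp1, Jun, Egr1 and Nr4a1 on each of 6 arrays (vector blue, Meg3 orange; open symbols vector replicate 2 and Meg3 replicate 1; probe sets in order of their number). In 3 of 4 Dusp1 and 5 of 8 Nr4a1 probe sets the open symbols are the lowest of their clone, and in the first Dusp1 and the last Nr4a1 probe set they are not.

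Over all 45 member probe sets, 36 were negative and 9 positive, where 48.8% of all probe sets were negative. The groups did not overlap in 8 with Meg3 lower (5.41% of all probe sets) and in 2 with Meg3 higher (6.08%). Probe sets of a gene share its RNA and are not replicates. Tested singly, none of the 45 was called by limma over 241419 probe sets, where 0.000828% were called. An unadjusted p under 0.05 was found for 5. The share of all probe sets at that level was not computed, so this count cannot be set against it. The lowest adjusted p was 0.462, for a Jun probe set that read 8.92, 9.14 and 8.90 against 7.60, 8.20 and 8.07.

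Spread between cultures of a clone differed widely among the members. The pooled SD within clones was 0.65 (log2) for Dusp1 and 0.55 for Nr4a1, above 98.9% and 97.7% of all genes and above 97.5% and 96.4% of the 1000 genes nearest in mean level. Ier2 (0.32), Egr2 (0.28) and Egr1 (0.26) were also above the 75th percentile of all genes (0.26), which makes 5 of the 10. Egr1 was only just above it and exceeded 56.2% of genes of like level. Fosl2 and Jun (0.17 each), Fos and Fosb (0.14 each) and Junb (0.08) were under the median of all genes (0.18). These spreads rest in part on the 2 arrays that stand apart. Without vector replicate 2 and Meg3 replicate 1 the pooled SD of Dusp1 was 0.024, above only 5.07% of all genes, and that of Egr1 0.051 (20.2%). Nr4a1 stayed high at 0.23, above 94.9% of genes. Egr2 (0.16) and Fos (0.16) were then also above the 75th percentile of all genes (0.14), and Ier2 (0.13) was not. The place of Dusp1 and Egr1 among the variable genes is thus that of 1 culture in each clone.

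The wide spread had a common direction. Fosl2, Egr1, Egr2, Nr4a1 and Dusp1 were lowest in vector replicate 2 among vector cultures and in Meg3 replicate 1 among Meg3 cultures, 5 of the 10 members, against 25.3% of all genes. Relative to its clone mean, vector replicate 2 was at -0.93 for Dusp1, -0.69 for Nr4a1, -0.32 for Egr2 and -0.29 for Egr1, and Meg3 replicate 1 at -0.51, -0.52, -0.28 and -0.30. Ier2 went the other way in the vector clone, at 0.51 in vector replicate 2. Jun and Fos were slightly above their mean there (0.08 and 0.09). In Meg3 replicate 1, 8 members were below their clone mean, Junb (0.04) and Ier2 (0.05) being the exceptions. These are the arrays that stand apart over all probe sets, and the part of array quality in the members' spread was not tested. Against the other cultures of their clone, the median of the 10 members was -0.12 in vector replicate 2 and -0.34 in Meg3 replicate 1, where the median of all genes was 0.08 and 0.02. For the 10 heat shock genes it was 0.13 and 0.18, with 7 above their clone mean in both arrays and 3 below it in both. Of all genes 40.8% were above it in both and 30.6% below it in both, and of the members 2 and 6. The drop was not particular to the members. For the 13 SRF, ternary complex factor and CREB genes the medians were -0.53 and -0.25, with 1 above and 11 below in both. For the 15 MAP kinase phosphatases and feedback inhibitors they were -0.12 and -0.15, with 2 above and 8 below.

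**Figure D3:**
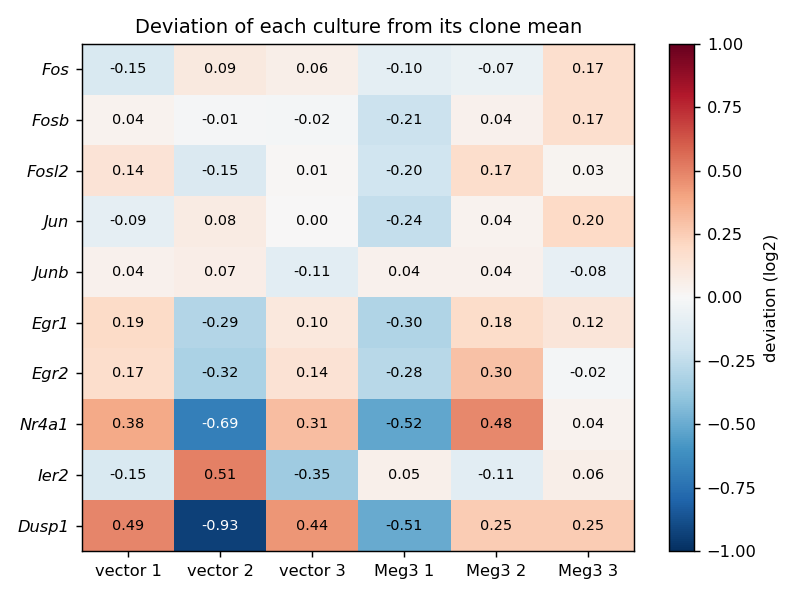
Deviation of each culture from the mean of its clone (log2, colour and printed value) for 10 immediate early genes, columns being the 6 arrays. Vector replicate 2 and Meg3 replicate 1 are each the lowest of their clone for Fosl2, Egr1, Egr2, Nr4a1 and Dusp1, down to -0.93. Fosb is also negative in both (-0.01 and -0.21), and Ier2 is at 0.51 in vector replicate 2.

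**Figure D4:**
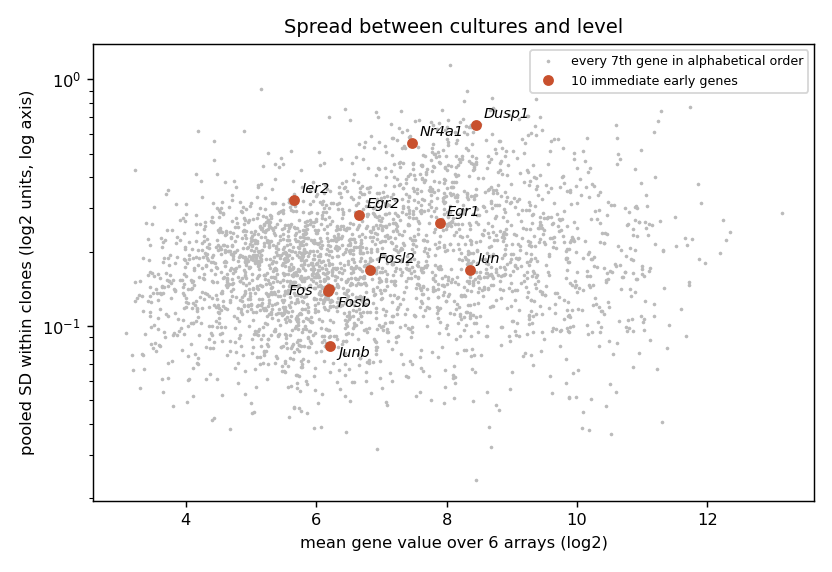
Pooled SD within clones (log2 units, log axis) against mean gene value over 6 arrays (log2) for the 10 members (orange) and for 2914 other genes, every 7th in alphabetical order (grey). Dusp1 (0.65) and Nr4a1 (0.55) lie at the upper edge of the cloud and Junb (0.08) near the lower edge; without vector replicate 2 and Meg3 replicate 1, Dusp1 is at 0.024.

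The members' mean deviation over the 6 arrays was 0.11, -0.16 and 0.06 in the vector and -0.23, 0.13 and 0.09 in the Meg3 cultures. Dusp1 and Nr4a1 weighed most in vector replicate 2 (-0.93 and -0.69) and Meg3 replicate 1 (-0.51 and -0.52). Fos, Jun, Junb and Ier2 were above their clone mean in vector replicate 2, so not all members shared this profile. Many other genes did have a profile like this mean. The 5 most like it by Pearson correlation, among 10230 other genes above the median level, were Nucb1, Sdk2, Cdc42bpg, Pigo and Prokr1, each with r of 1.00 over 6 arrays. Sdk2, which encodes an adhesion protein of the immunoglobulin superfamily, had the same signs with larger values, such as -0.51 in vector replicate 2 and -0.69 in Meg3 replicate 1. In all, 871 genes had r above 0.95. The points share the arrays and the centring on clone means, which leaves few free values, so such correlations come easily.

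Without vector replicate 2 and Meg3 replicate 1, Dusp1 and Egr1 were called lower in the Meg3 clone, and the other 8 were not. Dusp1 then differed by -0.69 (SE 0.09; limma adjusted p = 0.00296) and Egr1 by -0.57 (SE 0.10; adjusted p = 0.00902). Jun followed with -0.38 (SE 0.10; adjusted p = 0.0693). In this setting 5.44% of all genes were called, 4.01% lower. Since their wide spread is what led to leaving these 2 out, and the other 4 are part of the fit above, this is no independent support. With the brightest probe set of each gene on all 6 arrays, Dusp1 (-0.85, SE 0.15; limma adjusted p = 0.130), Egr1 (-0.82, SE 0.17; adjusted p = 0.202) and Jun (-0.68, SE 0.22; adjusted p = 0.473) were again the most negative, without a call, where 0.196% of genes were called. In this setting Fos, Jun, Egr1 and Dusp1 had every Meg3 culture below every vector culture (4.7% of all genes), and Egr2 the reverse.

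**Figure D5:**
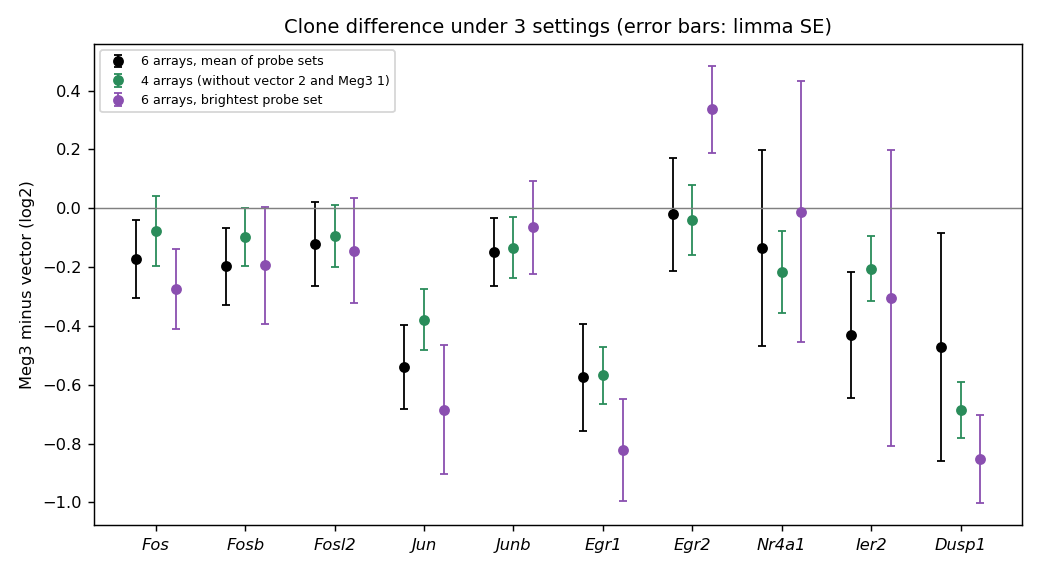
Difference Meg3 minus vector (log2, points) with limma standard errors (bars) for 10 immediate early genes under 3 settings: 6 arrays with the mean of the probe sets (black), the same without vector replicate 2 and Meg3 replicate 1 (green), and 6 arrays with the brightest probe set (purple). Jun, Egr1 and Dusp1 lie between -0.85 and -0.38 throughout, and Egr2 turns from -0.02 to 0.34 with the brightest probe set.

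Among the other genes of the pathway, 1 of 93 measured was called by limma, lower, and none higher (0.465% and 0.201% of all genes), and their median difference was -0.04. Dusp16, a phosphatase that acts on JNK and p38 kinases, fell from 7.01, 7.13 and 6.97 to 6.23, 6.06 and 6.28, which is -0.85 (SE 0.12) on the log2 scale (limma adjusted p = 0.0232). The groups lay far apart, but the call was lost when vector replicate 1 or 3 or any 1 Meg3 replicate was left out (adjusted p from 0.0805 to 0.158) and with the brightest probe set (0.329), the median of the probe sets (0.0789) or the replicate block (0.208). It was 1 of 15 phosphatases and feedback inhibitors, whose median was -0.05.

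The AP-1 family and the EGR, NR4A and NAB genes held no called gene. Of 10 other AP-1 family genes 7 were negative (median -0.09), or 5 without vector replicate 2 and Meg3 replicate 1 (median 0.02), and the small MAF genes Mafg (-0.13, SE 0.11) and Maff (0.23, SE 0.15) had the highest levels. In 2 of the 10 every Meg3 culture lay below every vector culture (6.39% of all genes), and in none the reverse (6.41%). Named after their values were seen, these were Jund (-0.38, limma adjusted p = 0.709) and Jdp2 (-0.19, adjusted p = 0.970). Without vector replicate 2 and Meg3 replicate 1 they differed by -0.27 and -0.19. All 6 remaining EGR, NR4A and NAB genes were negative (median -0.10), but 4 of 6 without vector replicate 2 and Meg3 replicate 1. Nab1 and Nab2 encode corepressors that bind EGR proteins. Nab1 read 9.48, 9.77 and 9.69 against 9.26, 9.20 and 8.93, without overlap (difference -0.52, SE 0.14; limma adjusted p = 0.251), and Nab2 differed by -0.09 (SE 0.19).

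Of 27 other early response genes 19 were negative (median -0.10), again with none called. Btg2, an antiproliferative gene induced early by growth factors, read 9.78, 9.69 and 9.55 against 9.06, 9.24 and 8.85, without overlap (difference -0.63, SE 0.14; limma adjusted p = 0.137). Mcl1, a short-lived survival factor, differed by -0.31 (SE 0.18). Without vector replicate 2 and Meg3 replicate 1, 5 of 93 pathway genes (5.38%) were called lower and none higher, where 4.01% of all genes were called lower: Nab1, Btg2, Dusp16 and, named after their values were seen, Klf6 (-0.52) and Dusp4 (-0.68).

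Median differences were small for genes that act upstream of the members and for heat shock genes, which are listed beside them. SRF, ternary complex factor and CREB genes had 5 of 13 negative (median 0.05), or 9 without vector replicate 2 and Meg3 replicate 1 (median -0.05), with Creb1 at -0.02 (SE 0.12) and the coactivator gene Crebbp at 0.16 (SE 0.17). Of 12 MAP kinase cascade genes 6 were negative (median 0.03), or 7 without those arrays (median -0.05), with Braf at 0.13 (SE 0.12) and the ribosomal S6 kinase gene Rps6ka3 at -0.21 (SE 0.14). Heat shock genes had 5 of 10 negative (median 0.01), and the chaperone genes Hsp90ab1 and Hsp90aa1 differed by -0.07 (SE 0.15) and -0.06 (SE 0.13). None of these 35 genes was called, and transcript levels carry no information on phosphorylation, through which these kinases and factors are known to act.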

How the data were processed

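RNA from 6 cultures (6 µg each) was labelled with biotin and hybridised to Affymetrix arrays, per the labels' protocols. Deposited by the authors were log2 values, 1 a probe set; RMA and Partek are named per the submitters' processing notes, with versions, build and filters not given in the sources used here. A gene's value was the mean log2 value of its probe sets with 1 symbol in the array annotation (212097 probe sets, 20416 genes; 4475 had several symbols and 24847 none). The Meg3 group was set against the vector group in R 4.3.3 with limma 3.58.1 (lmFit and eBayes, two-sided, without covariates or a filter on dim genes), with Benjamini-Hochberg adjustment over all genes and calls at an adjusted p under 0.05. Errors are limma standard errors. The steps were tested on simulated data. Precision is limited by the number of arrays; levels of different genes depend on their probes.

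Members, lists and the arrays left out together were chosen with earlier results of these data known. Named genes were the 10 members; from each pathway list up to 4 called genes (2 a direction), or else the 2 with the highest level; the 2 highest of each marker list; and the 5 most alike in deviations. Of 99 pathway genes listed, 93 were measured. The alternatives are in the closing section. Promoter motifs were counted in RefSeq windows with Python 3.11.15.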

Additional observations from a re-analysis of the deposited data

How the results depend on the processing

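Of the 10 members, Fos, Fosb, Fosl2, Jun, Egr1, Ier2 and Dusp1 kept a negative difference in every alternative in which they were tested (15, or 14 for Ier2, which the filter on dim genes removed). Junb reversed with the median of the probe sets (0.017). Egr2 reversed with the brightest probe set (0.34) and Nr4a1 with the median of the probe sets (0.012); with 1 array left out at a time Egr2 ran from -0.18 to 0.12 and Nr4a1 from -0.48 to 0.13. Members were called under 2 alternatives only: 3 with array weights (13.1% of all genes called), a fit that stopped before it reached its convergence tolerance (Jun -0.44, Egr1 -0.58, Dusp1 -0.73), and 2 without vector replicate 2 and Meg3 replicate 1 (5.44% of all genes). No member probe set was called with the replicate block, quantile normalization, trend and robust estimation or 1 array left out; array weights and leaving out both arrays were not run on probe sets.

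Calls over all genes numbered 136 in the main setting, 30 with the replicate block, 40 with the brightest and 58 with the median of the probe sets, 2682 with array weights, 1111 without both arrays, and 22 to 349 with 1 array left out. Pathway genes called numbered 1, against 0 with the replicate block, the brightest or the median of the probe sets, 15 with array weights, 5 without both arrays, and 0 to 1 with 1 array left out. Deviations of same-numbered cultures correlated at -0.61, -0.63 and 0.28. This cannot show whether cultures were paired, since values are centred within clones and the arrays that stand apart carry different numbers. The replicate block left 0 members called.

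Members without overlap between clones numbered 4, against 2 after quantile normalization and 1 with the median of the probe sets, where 12.8%, 12.7% and 12.5% of all genes did not overlap. Members above the 75th percentile of spread numbered 5, against 3 after quantile normalization, 2 with the brightest probe set, 3 without both arrays and 3 to 5 with 1 array left out (an alternative chosen after seeing the data). Without both arrays 22 of the 93 pathway genes turned direction. The other alternatives were run on the 13 named pathway genes, and the direction turned for Maff with the median of the probe sets (-0.43), for Nab2 (0.072), Creb1 (0.0605) and Hsp90ab1 (0.030) with the brightest, and with 1 array left out for Nab2 (-0.26 to 0.053), Creb1 (-0.078 to 0.021), Crebbp (-0.023 to 0.27), Hsp90ab1 (-0.19 to 0.015) and Hsp90aa1 (-0.14 to 0.020).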
